A study of Mus musculus with 6 samples.

Results

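The adenylyl cyclases are the enzymes that make cyclic AMP from ATP, and the mouse genes Adcy1 to Adcy10 were followed here in fat of Eepd1 knockout mice. The genes were chosen by symbol. All 10 are among the 32244 genes listed, and 9 of the 10 had enough counts to be tested, as did 16121 of all genes. Messenger RNA came from epididymal white adipose tissue, a visceral fat depot of male mice, with 3 libraries from Eepd1 knockouts (EKO) and 3 from wild types (WT), all on the C57BL/6J background. Mice of both genotypes had eaten a high-fat diet for 3 months, and no group on another diet is part of the comparison. The sources used here do not give the knockout allele, the tissues that lack the gene or the age of the mice. Nor do the labels say that each library is a separate animal; the p-values then measure only the spread between these samples, which may be technical.

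In fat cells, catecholamines bind β-adrenergic receptors, the receptor switches on the stimulatory G protein, and the G protein activates a cyclase in the plasma membrane. The cyclic AMP formed activates protein kinase A, which phosphorylates hormone-sensitive lipase and perilipin and so starts triglyceride breakdown. The membrane cyclases differ in what else controls them. Adcy5 and Adcy6 are inhibited by calcium, Adcy1, Adcy3 and Adcy8 are stimulated by calcium with calmodulin, and Adcy2, Adcy4 and Adcy7 are stimulated by G protein βγ dimers. Adcy9 responds little to forskolin, the plant compound that activates the other membrane cyclases. Adcy10 encodes the soluble cyclase, which bicarbonate and calcium activate and which sperm need to swim.

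Total counts lay between 17215072 and 18330206 per library. Levels are given as CPM, that is, counts divided by the TMM-scaled size of their library, and 3 counts, the most that a count of 0 allows, correspond to 0.154 to 0.192 CPM. Such limits cover counting error only. Eepd1, the targeted gene, stood at 152, 47.7 and 116 CPM in EKO 1, 2 and 3 and at 244, 304 and 192 CPM in WT 1, 2 and 3; the deleted part is not given, so reads from the rest of the gene cannot check the genotype. WT 2 stood apart by testis transcripts, with the sperm protamine Prm1 at 412 CPM against at most 14.5 CPM in any other library. EKO 3 stood apart by the liver transcript Alb, at 122 CPM against at most 38.9 CPM in any other library. Adipocyte markers were present in every library, Adipoq at 180 to 711 CPM in EKO and 1371 to 2616 CPM in WT.

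The cyclase transcripts of knockout fat differed from those of wild-type fat in their make-up, while their summed levels overlapped. Adcy5 and Adcy6, the calcium-inhibited cyclases, lay below all WT libraries in each EKO library, and Adcy7 and Adcy3 were higher in every EKO library. Adcy9 and the scarce Adcy2 also lay higher in all EKO libraries, while the groups of Adcy4, Adcy8 and Adcy10 overlapped. Of the 9 tested cyclases 4 therefore lay wholly higher and 2 wholly lower in EKO, where 25.1% and 17.7% of all genes tested did so, 42.8% together. In the edgeR quasi-likelihood test no cyclase passed the threshold of 0.05 on the Benjamini-Hochberg adjusted p, nor did any gene (0% of 16121, with 5264 genes or 32.7% at an unadjusted p under 0.05), and the lowest edgeR adjusted p of any gene was 0.0628. That lowest value was shared by 783 genes, among them Adcy6, Adcy3 and Adcy5, which ranked 85, 248 and 715 by unadjusted p. The DESeq2 Wald test on the same counts called Adcy3 and Adcy7 higher and Adcy5 and Adcy6 lower, where it called 23.0% of the 14976 genes to which it gave an adjusted p. limma-voom called no gene, and with sample quality weights it called these 4 cyclases and Adcy4 (lower), beside 25.4% of all genes. Without WT 2, edgeR called Adcy3, Adcy6 and Adcy7, beside 2.69% of all genes. The authors' deposited table marks Adcy3, Adcy5, Adcy6 and Adcy7 as significant, as it does 10.1% of its genes with an adjusted p.

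**Figure D1:**
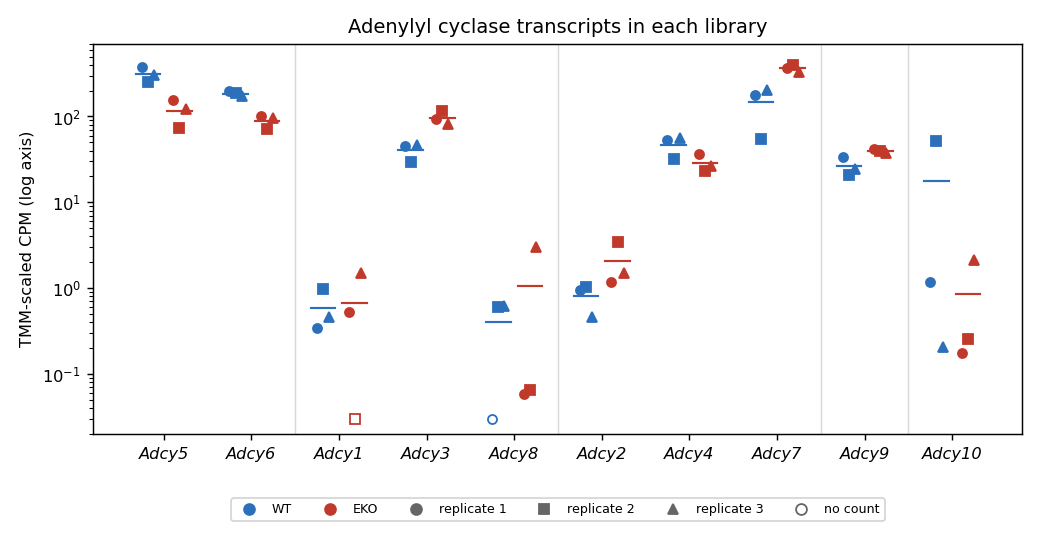
TMM-scaled CPM (log axis) of each adenylyl cyclase gene in the 3 WT (blue) and 3 EKO (red) libraries; lines are group means, marker shapes are replicates, and open markers at the foot of the axis are libraries with no count. Adcy5 and Adcy6 lie lower and Adcy3 and Adcy7 higher in every EKO library, and the high Adcy10 value is WT 2.

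Adcy5 and Adcy6 are the isoforms best known from heart muscle, where they serve β-adrenergic signalling. Adcy5 (ENSMUSG00000022840, chromosome 16, 35154877 to 35305737, plus strand, GRCm38) stood at 155, 73.4 and 122 CPM in EKO 1, 2 and 3 and at 381, 251 and 304 CPM in WT 1, 2 and 3. The highest EKO library lay below the lowest WT library, and EKO 2 was the lowest of all. The means were 117 ± 40.8 CPM in EKO and 312 ± 65.6 CPM in WT (SD, n = 3), a 2.68-fold lower level with a log2 difference of -1.42 ± 0.30 (SE) and an edgeR adjusted p of 0.0628. The DESeq2 adjusted p was 0.000195, and over all alternatives the adjusted p ran from 0.000195 to 0.229.

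Adcy6 (ENSMUSG00000022994, chromosome 15, 98589973 to 98610076, minus strand) varied least among the WT libraries, relative to its mean, of the 10 genes. It stood at 102, 71.5 and 95.3 CPM in EKO 1, 2 and 3 and at 197, 187 and 171 CPM in WT 1, 2 and 3. The WT values lay close together and EKO 2 was again the lowest library. The log2 difference was -1.04 ± 0.16 (SE), with an edgeR adjusted p of 0.0628, a DESeq2 adjusted p of 8.45e-07, an edgeR adjusted p of 0.0475 without WT 2 and a range of 8.45e-07 to 0.229 over all alternatives. An antisense gene, Gm29331, overlaps 605 bases or 8.92% of the annotated exons of Adcy6, and without a stated strand setting reads of the shared bases cannot be assigned.

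Adcy7 and Adcy3 stood on the other side of the comparison. Adcy7 (ENSMUSG00000031659, chromosome 8, 88272403 to 88329962, plus strand), a cyclase abundant in immune cells, stood at 366, 401 and 329 CPM in EKO 1, 2 and 3 and at 180, 55.1 and 203 CPM in WT 1, 2 and 3. The EKO libraries lay close together, and WT 2 was far below the other WT libraries. Its log2 difference was 1.32 ± 0.46 (SE; edgeR adjusted p = 0.108), with a DESeq2 adjusted p of 0.0274 and a range of 0.0274 to 0.326 over all alternatives. Without WT 2 the log2 difference was 0.88, over 1.5 times smaller in size, and the edgeR adjusted p was 0.0443.

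Adcy3 (ENSMUSG00000020654, chromosome 12, 4133103 to 4213525, plus strand) is the cyclase of olfactory neurons and of primary cilia, and its loss causes obesity in mice. It stood at 93.8, 116 and 80.7 CPM in EKO 1, 2 and 3 and at 45.4, 29.6 and 47.1 CPM in WT 1, 2 and 3. Every EKO library was above every WT library, EKO 2 being the highest and WT 2 the lowest. The log2 difference was 1.25 ± 0.22 (SE; edgeR adjusted p = 0.0628), with a DESeq2 adjusted p of 0.000289, a range of 0.000289 to 0.229 over all alternatives and an edgeR adjusted p of 0.0461 without WT 2.

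The 3′ end of Adcy3 runs into Cenpo, a centromere protein gene on the opposite strand. The genes share 1380 exonic bases, 22.1% of the annotated exons of Adcy3, so these reads are uncertain in both. Cenpo was the scarcer by far, at 11.4, 12.1 and 13.4 CPM in EKO 1, 2 and 3 and at 10.5, 9.58 and 9.75 CPM in WT 1, 2 and 3. Its log2 difference was 0.31 ± 0.16 (SE; edgeR adjusted p = 0.229). Of the annotated 50-base stretches of Adcy3, 18.6% also occur, on either strand, in another gene, against 7.42% for Adcy6, 3.39% for Adcy2, 0.282% for Adcy8 and 0% for the other 6 cyclases. Exons shared with a gene on the opposite strand, such as Cenpo, count among these stretches.

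**Figure D2:**
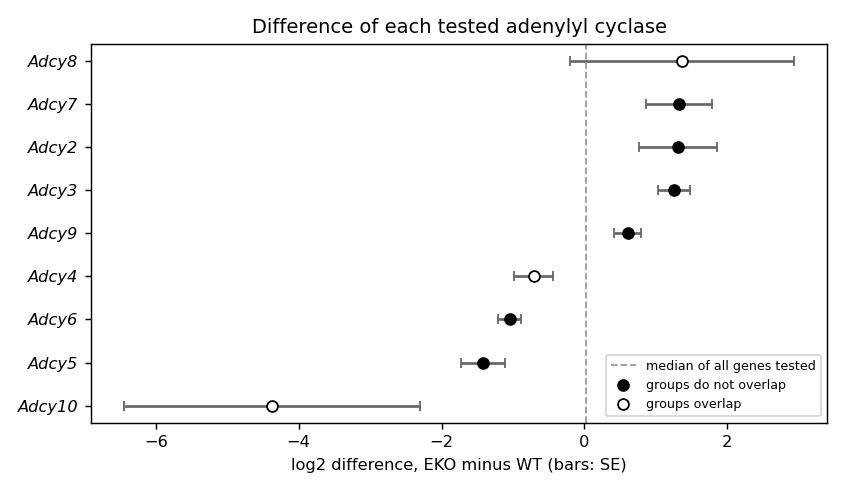
Log2 difference, EKO minus WT, of the 9 tested adenylyl cyclases from the edgeR fit, with SE bars; filled points are genes whose groups do not overlap, and the dashed line is the median of all genes tested. Adcy7, Adcy3, Adcy2 and Adcy9 lie above the median and Adcy5, Adcy6 and Adcy4 below it, Adcy4 with overlapping groups, while Adcy8 and Adcy10 have wide bars.

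The start regions shown here for Adcy5, Adcy3 and Adcy7 differ in base composition. RefSeq (GRCm38.p6) gives 11 start regions for 8 of the 10 genes, each with 250 bases before and 50 after a transcription start; Adcy6 and Adcy8 are not among them. Shown here, 5′ to 3′, is the first listed start of Adcy5, Adcy3 and Adcy7, at chr16:35154614-35154913, chr12:4133147-4133446 and chr8:88282742-88283041, all on the plus strand. All listed starts of Adcy7 lie inside its annotated span, downstream of its first base at 88272403. Which start was used in this tissue was not tested. Capitals mark matches, on either strand, to the GC box GGGCGG, the cAMP response core TGACG, the C/EBP form TTGCNNAA, the nuclear receptor core AGGTCA, the ETS core GGAAGT, its PU.1 form GAGGAAGT (which contains the ETS core) or the TATA box TATAAA.
Adcy5: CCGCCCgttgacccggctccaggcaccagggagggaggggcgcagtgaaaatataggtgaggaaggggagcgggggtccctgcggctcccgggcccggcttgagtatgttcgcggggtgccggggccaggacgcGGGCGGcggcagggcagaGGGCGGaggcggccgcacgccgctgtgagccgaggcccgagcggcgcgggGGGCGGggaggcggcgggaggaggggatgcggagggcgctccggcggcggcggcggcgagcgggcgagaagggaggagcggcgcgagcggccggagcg
Adcy3: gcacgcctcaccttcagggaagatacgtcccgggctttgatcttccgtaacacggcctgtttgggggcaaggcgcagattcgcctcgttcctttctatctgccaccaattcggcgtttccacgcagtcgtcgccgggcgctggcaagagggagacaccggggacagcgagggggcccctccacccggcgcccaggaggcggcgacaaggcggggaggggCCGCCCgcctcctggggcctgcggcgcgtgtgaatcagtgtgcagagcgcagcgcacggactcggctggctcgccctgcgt
Adcy7: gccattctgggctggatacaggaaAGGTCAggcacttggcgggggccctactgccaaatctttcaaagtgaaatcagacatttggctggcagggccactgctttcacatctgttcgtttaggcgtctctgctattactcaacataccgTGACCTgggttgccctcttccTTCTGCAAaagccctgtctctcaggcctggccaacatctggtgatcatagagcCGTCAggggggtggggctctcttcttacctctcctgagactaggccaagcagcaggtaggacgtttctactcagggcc
The Adcy5 window was 79.0% G and C with 44 CpG pairs and 4 GC boxes, and the Adcy3 window 68.7% with 33 CpG pairs and 1 GC box. The Adcy7 window was 54.7% G and C with 6 CpG pairs and no GC box, near the median of all 32851 windows (52.7% and 7 CpG pairs). It held 1 TGACG, 1 TTGCNNAA and 2 AGGTCA matches, which 20.8%, 10.8% and 16.3% of all windows hold at least once, while GGGCGG occurs in 35.7%. The further listed starts of Adcy7 held 1 GGAAGT match (23.8% of all windows) and 1 GC box, and the further start of Adcy3 held 1 GAGGAAGT match (3.20%). That further Adcy3 window was 56.0% G and C with 7 CpG pairs and no GC box, near the Adcy7 window shown. The contrast of Adcy3 with Adcy7 thus depends on the start chosen. No window of a cyclase held the full response element TGACGTCA (1.79% of all windows), a direct repeat of AGGTCA spaced by a single base (0.0396%) or TATAAA (13.6%). These matches describe letters in the windows and no binding was measured.

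Compared per kilobase of annotated exon, which allows genes to be set side by side, the leading cyclase differed between the genotypes. In WT the mean level was 44.5 ± 9.37 CPM per kb for Adcy5, 30.6 ± 2.16 for Adcy6, 23.5 ± 12.8 for Adcy7, 13.4 ± 3.81 for Adcy4, 8.09 ± 1.92 for Adcy3 and 5.05 ± 1.24 for Adcy9 (SD, n = 3). Adcy5 was first in each WT library and its range did not meet that of Adcy6, whereas each later neighbour in this order overlapped the next. In EKO the mean level was 58.7 ± 5.79 CPM per kb for Adcy7, 19.3 ± 3.59 for Adcy3, 16.6 ± 5.83 for Adcy5, 14.8 ± 2.67 for Adcy6, 8.18 ± 2.01 for Adcy4 and 7.68 ± 0.37 for Adcy9. Adcy7 was first in each EKO library and clear of all others. Adcy3, Adcy5 and Adcy6 overlapped one another there, and so did Adcy4 and Adcy9. Averaged over the 6 libraries, Adcy7 ranked above 91.8% of the 18800 protein coding genes measured by this scale, Adcy5 above 88.6%, Adcy6 above 84.5% and Adcy3 above 75.2%.

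Summed over the 10 genes, the level per kilobase was 135, 125 and 118 in EKO 1, 2 and 3 and 147, 105 and 135 in WT 1, 2 and 3. The groups overlapped, at means of 126 ± 8.59 and 129 ± 21.9 CPM per kb. Adcy5 and Adcy6 together made up 28.8%, 17.8% and 28.0% of that sum in EKO 1, 2 and 3 and 59.2%, 63.9% and 53.3% in WT 1, 2 and 3. Adcy7 alone made up 43.5%, 51.5% and 44.7% of it in EKO and 19.7%, 8.48% and 24.2% in WT. Adcy3 made up 13.8%, 18.5% and 13.6% in EKO and 6.14%, 5.63% and 6.95% in WT. None of these shares overlapped between genotypes. The shares rest on the same counts as the differences above and are a description of them.

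**Figure D3:**
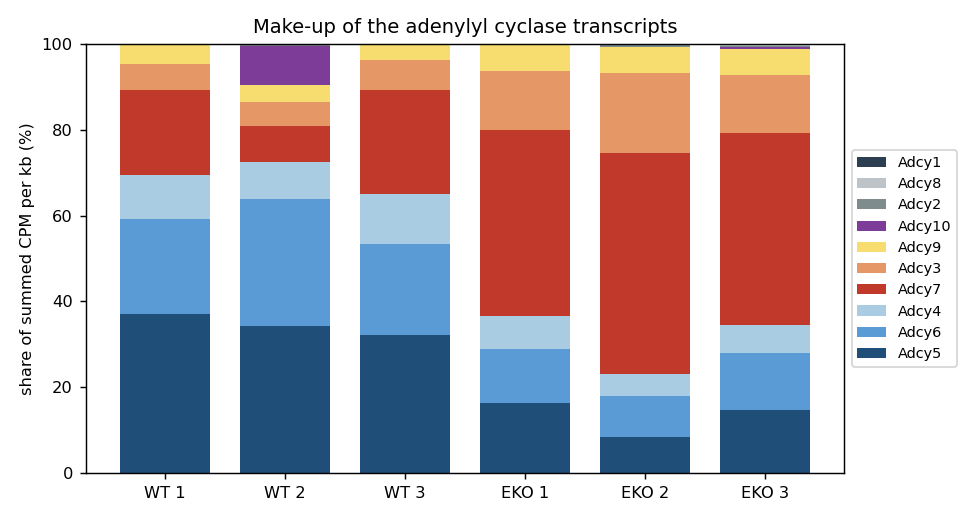
Share (%) of each adenylyl cyclase in the summed CPM per kb of exon of the 10 genes, 1 bar per library, WT left and EKO right. Adcy5 and Adcy6 (dark and mid blue) fill at least 53.3% of each WT bar and at most 28.8% of each EKO bar, Adcy7 (red) at least 43.5% of each EKO bar, and Adcy10 (purple) is visible in WT 2.

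Ratios within a library do not depend on the library scaling. The level per kilobase of Adcy3 relative to Adcy6 was 1.10, 1.96 and 1.02 in EKO 1, 2 and 3 and 0.277, 0.190 and 0.330 in WT 1, 2 and 3, a difference of 2.33 on the log2 scale. The ratio of Adcy7 to Adcy5 was 2.67, 6.15 and 3.04 in EKO and 0.531, 0.248 and 0.751 in WT. By contrast, the ratio of Adcy5 to Adcy6 was 1.30, 0.886 and 1.10 in EKO and 1.67, 1.16 and 1.53 in WT, and that of Adcy7 to Adcy3 was 3.15, 2.79 and 3.30 in EKO and 3.20, 1.5 and 3.48 in WT. The first of these ratios lay apart between genotypes, as did the second, and the last pair overlapped. The first and second each divide a gene wholly higher in EKO by a gene wholly lower, so they had to lie apart. These ratios restate the same counts as the differences above and were not tested.

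Adcy4, a cyclase described in endothelial cells, and Adcy9, a broadly expressed cyclase, differed less. Adcy4 (ENSMUSG00000022220, chromosome 14, 55769057 to 55784095, minus strand) stood at 36.7, 23.2 and 26.5 CPM in EKO 1, 2 and 3 and at 53.6, 31.6 and 56.0 CPM in WT 1, 2 and 3. EKO 1 lay above WT 2, so the groups overlapped, at a log2 difference of -0.71 ± 0.27 (SE; edgeR adjusted p = 0.132). Without WT 2 the groups lay apart, at -0.98 (edgeR adjusted p = 0.0589).

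Adcy9 (ENSMUSG00000005580, chromosome 16, 4287529 to 4420498, minus strand) stood at 41.8, 40.0 and 38.0 CPM in EKO 1, 2 and 3 and at 33.3, 20.7 and 24.6 CPM in WT 1, 2 and 3. The EKO libraries were the most alike of any cyclase, and WT 1 came nearest to them. The log2 difference was 0.61 ± 0.19 (SE; edgeR adjusted p = 0.0874).

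The neural cyclases were scarce. Adcy2 (chromosome 13, 68620043 to 68999541), a brain cyclase, had 20, 54 and 26 counts in EKO 1, 2 and 3 and 17, 19 and 9 counts in WT 1, 2 and 3. Its groups were apart by 1 count between EKO 1 and WT 2, at a log2 difference of 1.31 ± 0.54 (SE; edgeR adjusted p = 0.154) that was 0.69 without EKO 2 (edgeR adjusted p = 0.471). Adcy1 (chromosome 11, 7063489 to 7178506), which serves synaptic plasticity, had 9, 0 and 26 counts in EKO and 6, 18 and 9 in WT and was too low to test. Adcy8 (chromosome 15, 64697084 to 64922296), another calcium-stimulated brain cyclase, had 1, 1 and 53 counts in EKO and 0, 11 and 12 in WT. The Adcy8 mean in EKO is thus the value of EKO 3, and the log2 difference of 1.36 ± 1.57 (SE; edgeR adjusted p = 0.567) became -2.59 without that library.

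Adcy10 (ENSMUSG00000026567, chromosome 1, 165485183 to 165576774, plus strand) was abundant in a single library. It had 3, 4 and 37 counts in EKO 1, 2 and 3 and 21, 962 and 4 counts in WT 1, 2 and 3, so WT 2, at 52.4 CPM, stood alone. The log2 difference of -4.38 ± 2.07 (SE; edgeR adjusted p = 0.194) became 0.26 without WT 2. All 12 testis germ cell markers listed were found, and 9 were tested. The summed level of all 12 was 2603 CPM in WT 2, 135 in EKO 3, 30.6 in WT 1 and 1.36 to 2.67 in the remaining libraries, the same order as the Adcy10 level at its top. In WT 2 Adcy10 made up 9.22% of the summed cyclase level per kilobase, and at most 0.329% in any other library.

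Markers of cell types differed between the genotypes along with the cyclases. Of 16 adipocyte markers, all tested, 15 were lower in EKO, and their summed level was 12688 to 21388 CPM in EKO and 25969 to 36669 CPM in WT. Of 15 tested macrophage markers 14 were higher, with sums of 15289 to 23586 CPM in EKO and 2569 to 6729 CPM in WT. All 12 endothelial markers were lower, with sums of 803 to 1277 CPM in EKO and 1581 to 1963 CPM in WT. Of 12 fibroblast and progenitor markers 11 were higher, with sums of 9050 to 12673 CPM in EKO and 4843 to 6844 CPM in WT. Of 11 smooth muscle and pericyte markers 8 were lower, with sums of 596 to 727 CPM in EKO and 890 to 1061 CPM in WT. All 9 mesothelial markers had a lower fitted mean in EKO, with overlapping groups for each and sums of 36.9 to 214 CPM in EKO and 134 to 383 CPM in WT. Of 16 macrophage markers listed 15 were found among the genes, and no marker found from these lists was at 0 in all libraries. The macrophage list median, relative to the mean of the 6 libraries on the log2 scale, was 0.57, 0.95 and 0.33 in EKO 1, 2 and 3 and -0.40, -1.23 and -0.21 in WT 1, 2 and 3, beside 0.77, 0.90 and 0.62 and -0.25, -1.96 and -0.08 for Adcy7. The adipocyte list median was -0.23, -1.52 and -0.70 in EKO and 0.88, 1.02 and 0.54 in WT, beside -0.26, -1.33 and -0.60 and 1.04, 0.44 and 0.72 for Adcy5. Adcy7 and the macrophage list were thus lowest in WT 2, and Adcy5 and the adipocyte list lowest in EKO 2. Other lists shared these extremes. The fibroblast and progenitor median was also lowest in WT 2 (-0.54). The endothelial (-0.89), smooth muscle and pericyte (-1.10) and mesothelial (-2.13) medians were also lowest in EKO 2. Among the WT libraries the order differed, with the adipocyte list highest in WT 2 (1.02) and Adcy5 lowest there (0.44). In bulk tissue, fewer cells of a type and less RNA per cell cannot be told apart, and the part of these markers in the cyclase differences was not tested.

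**Figure D4:**
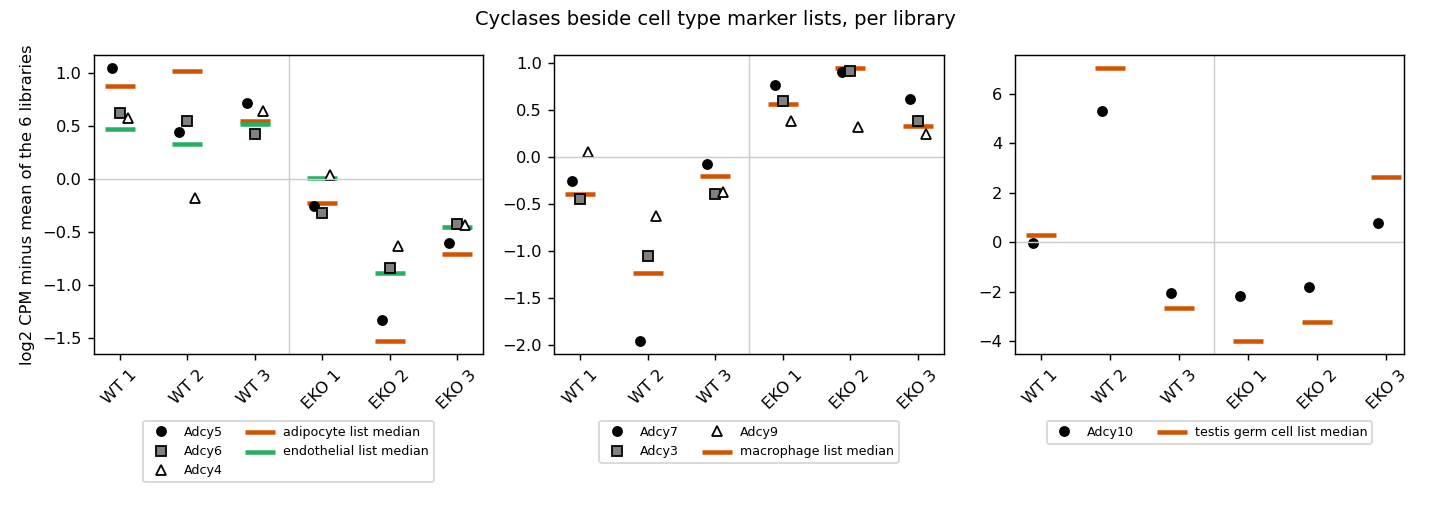
Log2 CPM of cyclases (black, grey and white points) and median of cell type marker lists (coloured bars), each relative to its mean over the 6 libraries, per library. Adcy5, Adcy6 and Adcy4 are shown beside adipocyte and endothelial lists, Adcy7, Adcy3 and Adcy9 beside the macrophage list, and Adcy10 beside the testis list, with WT 2 highest for Adcy10 at 5.32.

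The genes most like each cyclase were found by the root mean square difference of their centred log2 CPM over the 6 libraries, among 13482 protein coding genes of at least 1 CPM. Because they were picked by that likeness, an order or separation of libraries shared with the cyclase follows from the choice. Closest to Adcy7 were Mpeg1, a pore-forming protein of macrophages, Cotl1, an actin-binding protein, and Csf2ra, a chain of the GM-CSF receptor, at distances of 0.0755, 0.0800 and 0.0804. Mpeg1, itself one of the macrophage markers listed, stood at 1143, 1438 and 1094 CPM in EKO 1, 2 and 3 and at 651, 184 and 657 CPM in WT 1, 2 and 3. Closest to Adcy5 were Tusc5, an adipocyte regulator of glucose transporter traffic, Atp2a3, a calcium pump of the endoplasmic reticulum, and Cdc42ep1, a Cdc42 effector, at 0.0555, 0.0947 and 0.108. Tusc5 stood at 245, 127 and 200.4 CPM in EKO and at 610, 408 and 535 CPM in WT, with the same order of libraries as Adcy5.

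Closest to Adcy6 were Dab2ip, a Ras GTPase activator, Dlc1 and the lectin gene Cd209f, at 0.0425, 0.0583 and 0.0727. Closest to Adcy3 were Osbpl8, a lipid transfer protein, Aim2, a sensor of cytosolic DNA, and Tmem189, at 0.0318, 0.0411 and 0.0567. Aim2 stood at 23.6, 31.8 and 20.6 CPM in EKO and at 11.6, 7.41 and 11.8 CPM in WT, all EKO above all WT as for Adcy3. That separation follows from the choice of Aim2 by its likeness to Adcy3. Thbs1, a matrix glycoprotein, was closest to Adcy4 at 0.0552, BC028528 to Adcy9 at 0.0533, the endothelin receptor Ednra to Adcy2 at 0.292 and the desmosome gene Dsp to Adcy8 at 0.440. Syce1, a protein of the synaptonemal complex in meiosis, was closest to Adcy10 at 0.211, with 40.8 CPM in WT 2 and at most 2.17 CPM in any other library.

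The receptors and G proteins upstream of the cyclases differed gene by gene. From each list here and below, the gene with the largest difference in each direction was named among those with groups apart. That such a gene lay wholly higher or lower was therefore fixed by the choice. Of 20 tested receptors that couple to the stimulatory G protein, 10 were higher and 10 lower in EKO, at a median log2 of -0.13 beside 0.02 over all genes tested. The groups lay apart for 7 higher and 8 lower receptors, beside 25.1% and 17.7% of all genes tested. Adrb3, the β3-adrenergic receptor of fat cells, stood at 59.3, 9.11 and 15.5 CPM in EKO 1, 2 and 3 and at 310.1, 387 and 170.0 CPM in WT 1, 2 and 3, at a log2 difference of -3.37 ± 0.76 (SE; edgeR adjusted p = 0.0633). It is also 1 of the 16 adipocyte markers, and the gene Gm45470 overlaps 24.9% of its exons. Vipr2, a receptor for vasoactive intestinal peptide, lay wholly higher at a log2 difference of 1.79 ± 0.37 (SE; edgeR adjusted p = 0.0628). Without EKO 2 the median of these receptors was 0.01.

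Among G protein α subunits, Gnai1, which inhibits cyclases, stood at 159, 66.9 and 125 CPM in EKO 1, 2 and 3 and at 362, 384 and 273 CPM in WT 1, 2 and 3. That wholly lower level was a log2 difference of -1.54 ± 0.33 (SE; edgeR adjusted p = 0.0628). Gnai2, the inhibitory subunit common in blood cells, was 623 ± 88.3 CPM in EKO and 427 ± 107 CPM in WT (SD, n = 3), and Gnat3, the taste transducin, lay wholly higher at a log2 difference of 1.27 ± 0.25 (SE). Of 6 tested inhibitory α subunits 3 were higher and 3 lower, at a median log2 of 0.04. The groups lay apart for 3 higher and 2 lower ones, beside 25.1% and 17.7% of all genes tested. Gnas, the stimulatory subunit, was 13.1 ± 1.06 CPM in EKO and 14.1 ± 3.32 CPM in WT. Its value is uncertain, since other annotated genes overlap 22.0% of its exons. Of 8 tested α subunits of the other classes 5 were higher, at a median of 0.09, from Gna11 (log2 -0.76 ± 0.10 SE), which couples to phospholipase C, to Gna15 (1.38 ± 0.41 SE), its counterpart of blood cells. Among these 8, the groups lay apart for 4 higher and 1 lower.

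Of 4 tested β subunits 3 were higher at a median log2 of 0.26, Gnb1 by 0.41 ± 0.18 (0.24 without WT 2) and Gnb5 lower at -1.09 ± 0.28 (SE). Of 8 tested γ subunits 5 were higher at a median of 0.51. The groups lay apart for 2 higher and 1 lower β subunits and for 3 higher and 2 lower γ subunits. Among all genes tested, 25.1% lay wholly higher and 17.7% wholly lower. Gng2 lay wholly higher at 98.6 ± 8.61 against 39.7 ± 7.17 CPM (SD, n = 3) and Gng7 wholly lower at 3.31 ± 1.09 against 10.3 ± 4.95 CPM. The gene Gm48283 overlaps 20.4% of the exons of Gng2, and without WT 2 the median of the γ subunits was 0.16. Of 22 direct regulators and partners of cyclases 13 were higher at a median of 0.12, and the groups lay apart for 8 higher and 2 lower. Prkcd, a protein kinase C, stood at 323 ± 78.0 CPM in EKO and 124 ± 36.5 CPM in WT, another, Prkce, at 25.6 ± 7.32 and 56.5 ± 2.82 CPM. Ric8b, the chaperone of the stimulatory α subunit, stood at 25.5 to 28.4 CPM in EKO and 27.7 to 32.0 CPM in WT, with overlapping groups.

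Downstream of the cyclases, 11 of 21 tested effectors and transporters of cyclic AMP were higher and 10 lower, at a median log2 of 0.02. Their groups lay apart for 6 higher and 5 lower, beside 25.1% and 17.7% of all genes tested. Prkaca, a catalytic subunit of protein kinase A, lay wholly lower at 94.2 ± 14.7 CPM in EKO and 134 ± 15.2 CPM in WT (log2 -0.51 ± 0.15 SE; edgeR adjusted p = 0.0819). Abcc4, a pump that exports cyclic AMP, lay wholly higher at a log2 difference of 1.21 ± 0.33 (SE; 0.72 to 1.47 over all alternatives), and Popdc2, a membrane protein that binds cyclic AMP, wholly lower at -2.18 ± 0.61 (SE). Of 15 tested phosphodiesterases that can degrade cyclic AMP 11 were lower, at a median log2 of -0.42. The groups lay apart for 2 higher and 3 lower phosphodiesterases, beside 25.1% and 17.7% of all genes tested, a share of lower ones near that of all genes. Pde3b, which insulin activates in fat cells, stood at 170, 69.1 and 103 CPM in EKO 1, 2 and 3 and at 378, 438 and 233 CPM in WT 1, 2 and 3, a log2 difference of -1.62 ± 0.39 (SE; edgeR adjusted p = 0.0647). Pde8b lay wholly higher at 1.64 ± 0.26 and Pde1a wholly lower at -1.66 ± 0.43 (SE). No member of these lists passed the edgeR threshold with all 6 libraries. Of the genes named from them, Gna11, Gng2 and Pde1a passed it without WT 2 (edgeR adjusted p of 0.0425, 0.0386 and 0.0475), Pde1a at a log2 difference of -1.07.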

How the data were processed

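Counts per gene for 3 EKO and 3 WT libraries were deposited by the authors in 1 table, per the file headers, with their mean signal per gene, a fold change (ratio), its log2 value and p-values for EKO against WT. GRCm38 is the build named in the notes (per the submitters' processing notes). The sources used here name no aligner, counter or strand setting. Total RNA was extracted with TRIzol and turned into mRNA libraries, per the labels' protocols. No further per-sample column was present, and no library pair agreed within sampling noise (the chi-square over its degrees of freedom was at least 22.5 over genes with 20 or more counts in the pair).

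The counts were filtered with filterByExpr, scaled with TMM and tested by quasi-likelihood in edgeR 4.0.16 under R 4.3.3, with genotype as the sole term and Benjamini-Hochberg adjustment over all 16121 genes tested at 0.05. The SE is the log2 difference divided by the square root of F. Alternatives were other scalings and filters, DESeq2 1.42.0, limma 3.58.1 (voom, with and without quality weights), the replicate number as a block, and each library left out. Exon lengths and overlaps are from GENCODE (GRCm38), as the union of exons of the basic set for lengths and of the full set for overlaps. Named genes were the cyclases, the 3 closest genes of each, and from each of 9 pathway lists fixed genes and the extreme members with groups apart; Cenpo was added after its overlap was seen. The cyclases and lists were chosen with earlier results of these data known.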

Additional observations from a re-analysis of the deposited data

How the results depend on the processing

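Adcy2, Adcy3, Adcy4, Adcy5, Adcy6, Adcy7 and Adcy9 kept their direction under all 15 alternatives. Adcy3 and Adcy7 (higher) and Adcy5 and Adcy6 (lower) were called by DESeq2 and by limma-voom with sample quality weights, Adcy4 by the latter (adjusted p = 0.0192, range 0.0192 to 0.376), and Adcy3, Adcy6 and Adcy7 by edgeR without WT 2. Over all genes those fits called 3449, 4101 and 443, and leaving out a library gave 0 to 443. Adcy8 reversed without EKO replicate 3 (-2.59, range without a library -2.59 to 1.94), and Adcy10 without WT replicate 2 (0.26, range -6.32 to 0.26). In these, the library left out holds most of the counts. The share of Adcy5 and Adcy6, EKO minus WT, was -33.9 percentage points, -33.8 with the longest coding transcript as length, -36.0 without Adcy10 and -36.6 to -30.3 without a library (added after seeing the data). Without a library 6 or 7 cyclases lay apart, beside 46.7% to 53.9% of all genes; the 7 came without EKO 1 (53.9%) and without WT 2 (52.5%).

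The guanylyl cyclase median was -0.91 to -0.61 over all 15 alternatives. The other pathway medians moved in 1 to 6 of the 15; the cause was not tested. With library totals alone they became 0.15 for β subunits, 0.021 for regulators, -0.22 for receptors and -0.087 for effectors, and with upper-quartile factors 0.16, 0.028, -0.22 and -0.076. The receptor median was -0.24 with limma-voom, and the phosphodiesterase median -0.19 with quality weights. Leaving out a library gave 0.0074 to 0.30 for α subunits of the Gs, Gq and G12 classes, -0.082 to 0.26 for the Gi class, 0.18 to 0.30 for β and 0.16 to 0.65 for γ subunits, 0.0059 to 0.19 for regulators, -0.28 to 0.013 for receptors, -0.11 to 0.075 for effectors and -0.50 to -0.25 for phosphodiesterases.

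With the replicate number as a block edgeR called 0 genes, and the receptor median was -0.22. Deviations of same-numbered libraries had correlations of 0.27, -0.31 and -0.35 for numbers 1, 2 and 3, beside 0.45 for EKO 3 and WT 2. The labels do not say whether the numbers pair the libraries. With 3 libraries per group these correlations cannot decide it. Depth limits Adcy1, Adcy2 and Adcy8, each with fewer than 55 counts in every library.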

Other observations

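The guanylyl cyclases, relatives that make cyclic GMP, were less well covered. Of 10 listed genes 8 were found and 3 tested, these 3 all lower in EKO at a median log2 of -0.68 beside 0.02 over all genes tested. For 2 of them the groups lay apart, beside 17.7% of all genes tested that lay wholly lower. The gene of larger difference among these 2 is named here, so its separation was fixed by the choice. Npr2, the receptor of C-type natriuretic peptide, stood at 46.7, 21.0 and 33.4 CPM in EKO 1, 2 and 3 and at 81.8, 85.5 and 79.2 CPM in WT 1, 2 and 3. The WT libraries lay close together and above every EKO library, at a log2 difference of -1.28 ± 0.28 (SE; edgeR adjusted p = 0.0628).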
